A study of Mus musculus with 16 samples.

Results

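Transcripts of 10 circadian clock genes were measured in 2 fat depots, interscapular brown adipose tissue (BAT) and gonadal white adipose tissue (gWAT), in mice that lack Pgam1 in adipocytes (Adipo-Pgam1 KO mice) and in littermate controls. The genes were chosen by name, as the activators Arntl and Clock, the repressors Per1, Per2, Per3, Cry1 and Cry2, the nuclear receptors Nr1d1 and Nr1d2, and the output factor Dbp. They are 10 of the 22907 genes that had a named probe, and each is given by the brightest of its probes on the array, 19 probes in all. In each tissue all 10 could be tested, being well above background throughout a genotype, and 9 were so on all 16 arrays. Arntl was well above background on 15 arrays, the exception being 1 of the 4 gWAT controls.

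There were 4 arrays for each tissue and genotype, 16 in all, each hybridized with RNA of 1 tissue sample. The mice were male, of strain C57BL/6NCrSlc by their labels, on normal chow and under a light and dark cycle. Adipo-Pgam1 KO mice carried Adipoq-Cre with Pgam1 flox/flox, so Cre recombinase was made under the adiponectin promoter of adipocytes and the deletion of Pgam1, a glycolytic enzyme, was aimed at those cells and not at the other cells of the tissue. The controls lacked Cre but also carried Pgam1 flox/flox. Their age was 16 weeks except in replicate 4 of the Adipo-Pgam1 KO mice, labelled 14 weeks in both tissues. The hour at which tissue was taken is not given in the sources used here, so each level below was read at an unknown point of the daily cycle.

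In the mammalian clock, the proteins of Arntl (BMAL1) and Clock pair on E-box sequences and switch on the Per and Cry genes, whose products then enter the nucleus and repress that pair. Nr1d1 and Nr1d2 (REV-ERBα and REV-ERBβ) are switched on by the same pair and repress Arntl through response elements that hold the letters AGGTCA. Dbp, Tef and Hlf are PAR bZIP transcription factors that act on D-box sequences, among them those of Per genes. Adipose depots carry such a clock, in which Arntl transcripts are known to peak at the opposite phase to those of Nr1d1 and Dbp.

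Pgam1 itself was lower in BAT of Adipo-Pgam1 KO mice, with a log2 change of -1.74 (limma, SE, the standard error, 0.11, adjusted p = 1.11e-05), but gWAT arrays labelled Adipo-Pgam1 KO were higher than their controls by 0.95 (SE 0.19, adjusted p = 0.0139). Each direction given for gWAT therefore rests on that label. Adipoq, the adiponectin gene, was well above background on every array, and Ucp1, the uncoupling protein of thermogenic adipocytes, on every BAT array but on no gWAT control. The 75th percentile of signal, by which each array was scaled, ran from 401.3 to 451.3 in BAT controls, from 650.2 to 916.2 in BAT after the knockout and from 570.3 to 855.3 in gWAT. In each tissue, 3 controls lay on another slide than the 4 Adipo-Pgam1 KO arrays, so a within-slide difference rests on control replicate 4. In gWAT, the 4 labelled arrays and control replicate 4 shared slide 3, which was scanned on another day than all other arrays. Slide and scan day cannot be told apart there. Levels below are log2 intensities relative to the 75th percentile, and a change is the mean of the Adipo-Pgam1 KO arrays minus that of the controls.

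In BAT, 4 of the 10 clock genes fell in Adipo-Pgam1 KO mice at an adjusted p of 0.05 (Clock, Per3, Cry2 and Dbp) and none rose. Of all 14277 genes tested in BAT, 34.0% were lower and 27.5% higher by the same test, so the share of clock genes that were lower was near that of all genes. At an unadjusted p under 0.05, 1 clock gene was higher (Cry1) and 5 were lower, and in the methods' t-test 2 were lower and 0 higher after adjustment. The median change was -0.34, against -0.08 over all genes tested. Higher genes made up 44.7% of those called in BAT, but 79.9% when arrays were scaled by spike-in controls, which moved the median of all genes by 0.54, and 17.7% when scaled by Actb and Rplp0, which moved it by -0.59. The clock genes called changed with this scaling. With spike-in controls Arntl (0.81, adjusted p = 0.00689), Cry1 (0.92, adjusted p = 0.00635) and Nr1d2 (0.66, adjusted p = 0.00633) were higher, Per3 was the one lower, and Clock, Cry2 and Dbp did not pass. With Actb and Rplp0, Per2 (-1.15, adjusted p = 0.00322) and Nr1d2 (-0.47, adjusted p = 0.0227) were lower as well. In gWAT, Arntl rose and Per3 fell on arrays labelled Adipo-Pgam1 KO, and the other 8 did not pass, against 9.97% of all 14146 genes higher and 7.85% lower. Of the genes called in gWAT 55.9% were higher, and 93.8% under spike-in scaling, which moved the median by 0.39. Per3 was the one clock gene that passed in both tissues.

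**Figure D1:**
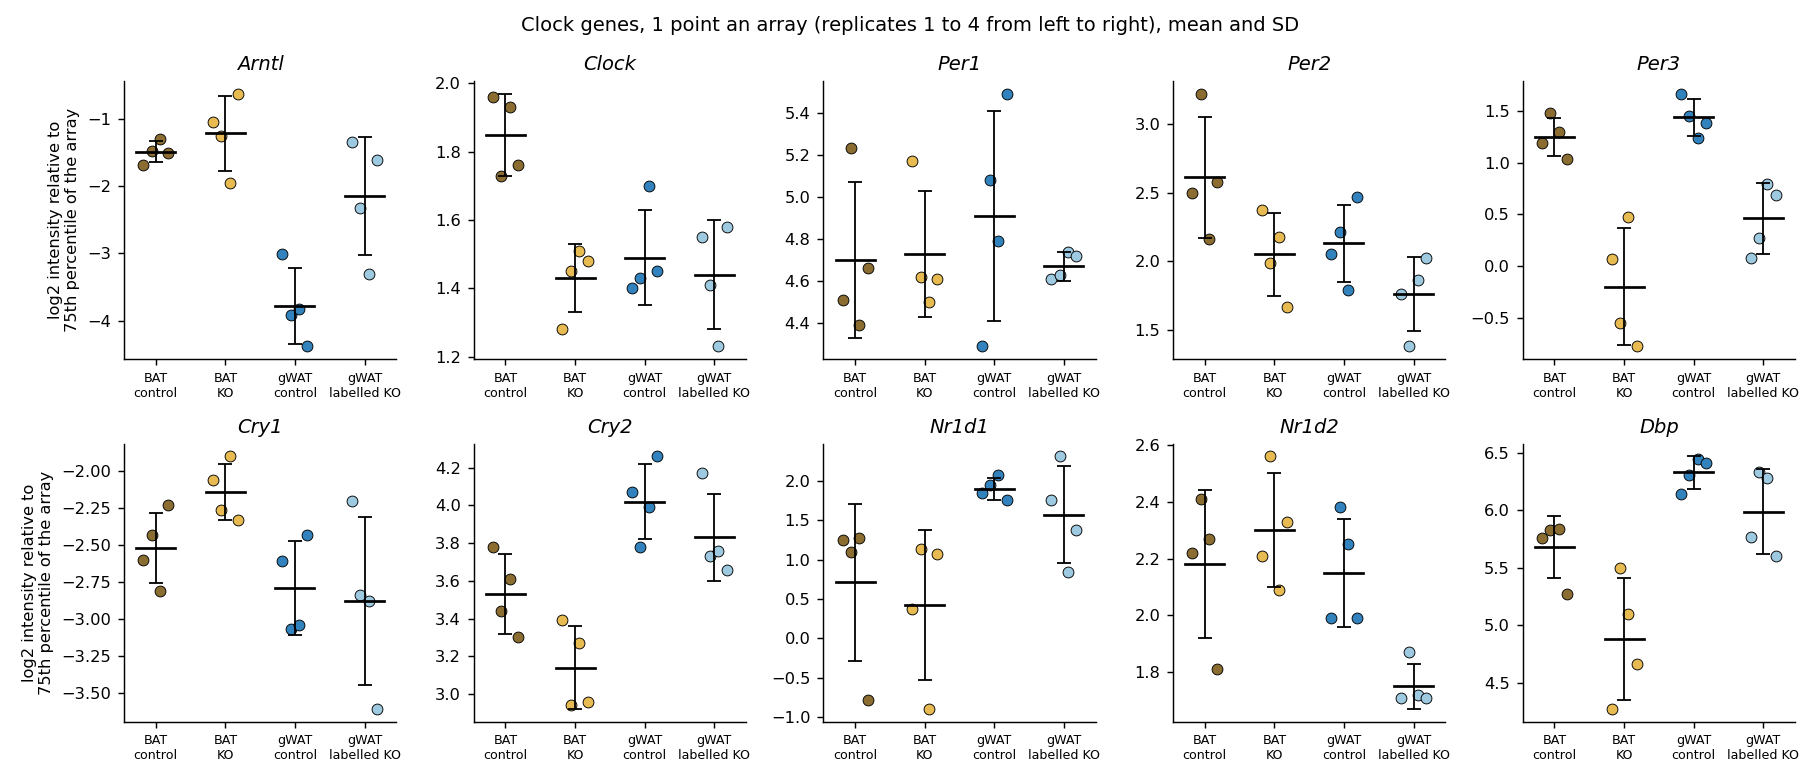
Log2 intensity of the 10 clock genes relative to the 75th percentile of the array in BAT and gWAT, with 1 point an array (replicates 1 to 4 from left to right), the mean as a thick line and the SD as a bar; each panel has its own vertical axis. The 4 BAT arrays of Adipo-Pgam1 KO mice lie between -0.78 and 0.47 for Per3, below all 4 controls, and Arntl is lowest in the gWAT controls.

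**Figure D2:**
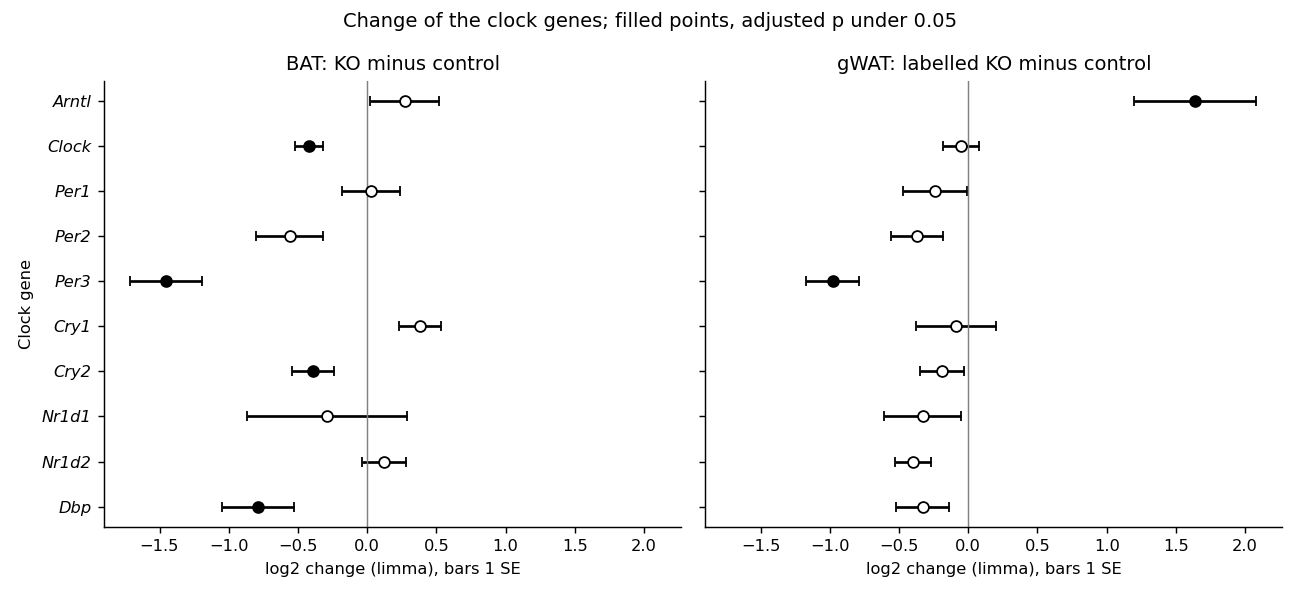
Log2 change of each clock gene (limma, bars 1 SE) in BAT, left, and in gWAT by its label, right, on a common axis. Filled points passed an adjusted p of 0.05, namely Clock, Per3, Cry2 and Dbp in BAT, all lower, and Arntl (1.64) and Per3 (-0.98) in gWAT.

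Arntl encodes BMAL1, the activator on which the whole loop depends. In BAT its level was -1.69, -1.48, -1.30 and -1.51 in controls 1 to 4 and -1.05, -1.26, -1.96 and -0.63 in Adipo-Pgam1 KO mice. The Adipo-Pgam1 KO arrays lay on both sides of the controls, and the change of 0.27 (SE 0.25) did not pass (adjusted p = 0.378). Without Adipo-Pgam1 KO replicate 3 it was 0.52 (SE 0.17) and passed (adjusted p = 0.0329). It was -0.32 when arrays were scaled by Actb and Rplp0. In gWAT its level was -3.01, -3.91, -3.83 and -4.38 in controls and -1.34, -2.33, -3.30 and -1.61 in the arrays labelled Adipo-Pgam1 KO. There, 3 of the 4 labelled arrays were above every control and replicate 3 lay within the controls. The change was 1.64 (SE 0.44, adjusted p = 0.0373), a relative level of 3.11, and its direction held under every scaling tried, from 0.89 to 2.03. Arntl entered this test only through the labelled arrays, of which all 4 were well above background, against 3 of the controls. Its other probes were well above background on 0 and 1 of the gWAT controls, so the size of the change leans on dim control values. The call did not hold when any 1 of 6 arrays was left out (control replicates 2, 3 and 4, labelled replicates 1, 2 and 4, with adjusted p from 0.0649 to 0.0919) or within slide 3 (2.24, SE 0.69, adjusted p = 0.154), nor under Actb and Rplp0 scaling (adjusted p = 0.0586), by the mean of probes (1.46, adjusted p = 0.0967), with no filter on dim probes (adjusted p = 0.084) or in the methods' t-test (adjusted p = 0.0905). The change in gWAT exceeded that in BAT by 1.36 (SE 0.55), which narrowly did not pass (adjusted p = 0.0536). It did pass under quantile normalization (1.46, adjusted p = 0.0277), median centring (adjusted p = 0.0326), Actb and Rplp0 scaling (1.90, adjusted p = 0.0159), with the replicate block (adjusted p = 0.0434) and in 3 of the 16 fits that left out 1 array (without BAT Adipo-Pgam1 KO replicate 4, gWAT control 1 or labelled gWAT replicate 3, adjusted p down to 0.00764). It did not pass under normexp with quantile normalization (0.60) or with the slide as a block (1.95, adjusted p = 0.131). Nor did it in the other fits that left out 1 array (adjusted p up to 0.11). Without BAT Adipo-Pgam1 KO replicates 1 and 3, a pair left out after seeing the data, it was 1.08 (adjusted p = 0.174).

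Among control mice, Arntl was the clock gene that differed most between the depots. It was lower in gWAT than in BAT by 2.29 on the log2 scale, a relative level of 0.205 (SE 0.26, adjusted p = 9.65e-05), with no overlap of the groups. Arntl entered this test only through BAT, where all 4 controls were well above background, against 3 in gWAT. In the labelled gWAT arrays, where Arntl was higher, most of the tested genes of thermogenic adipocytes were higher as well. Of the 6 in that list 4 were tested and 3 rose (Cidea by 3.41, Elovl3 by 4.35 and Cpt1b by 4.23). Elovl3 was tested only through the labelled arrays, since 3 of the 4 gWAT controls were well above background. Ppargc1a, the other gene tested, did not pass and was lower, with means of -0.57 in controls and -1.09 in the labelled arrays. Ucp1 and Dio2 were not tested. The summed linear level of the list was 6.03 to 10.8 in gWAT controls and 48.6 to 141 in the labelled arrays, against 2368 to 2527 in BAT controls. Of 6 skeletal muscle markers 3 were tested in gWAT and none passed in limma or in the methods' t-test, with 1 higher at an unadjusted p under 0.05, and Ckm, Myh1 and Myh4 were well above background on no labelled array. Their summed level, 2.78 to 24.2 in gWAT controls and 29.7 to 57.8 in the labelled arrays, was nearly that of Acta1 alone (means of 3.28 and 5.48 on the log2 scale), whereas Mylpf (-3.36 and -3.45) and Tnnt3 (-2.70 and -3.33) were not higher. The part of either in the level of Arntl was not tested, and in a bulk sample fewer cells of a type and less RNA per cell cannot be told apart.

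Clock encodes the partner of BMAL1. Its level in BAT was 1.96, 1.73, 1.93 and 1.76 in controls and 1.28, 1.45, 1.51 and 1.48 in Adipo-Pgam1 KO mice, so the groups did not overlap. The change was -0.42 (SE 0.10, adjusted p = 0.00632), a relative level of 0.749, and it passed whichever array was left out. A second probe, also well above background on all 16 arrays, did not show it, with a change of 0.07 (SE 0.09, adjusted p = 0.547), and the first probe changed by 0.12 under spike-in scaling and by -0.33 within slide 2 (adjusted p = 0.117). In gWAT the level was 1.40, 1.43, 1.70 and 1.45 in controls and 1.55, 1.41, 1.23 and 1.58 in the labelled arrays, a change of -0.05 (SE 0.13, adjusted p = 0.811). Controls were lower in gWAT than in BAT by 0.35 on the log2 scale (SE 0.12, adjusted p = 0.0258), less than by Arntl.

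Per3 encodes a PERIOD repressor and was the clock gene with the largest fall in both tissues. In BAT its level was 1.19, 1.48, 1.30 and 1.04 in controls and 0.07, -0.55, 0.47 and -0.78 in Adipo-Pgam1 KO mice. Every Adipo-Pgam1 KO array was below every control, though they spread over a wider range. The change was -1.45 (SE 0.26, adjusted p = 0.00137), a relative level of 0.366. In gWAT it was 1.67, 1.45, 1.24 and 1.39 in controls and 0.08, 0.27, 0.79 and 0.69 in the labelled arrays, again without overlap. That change was -0.98 (SE 0.19, adjusted p = 0.0125), a relative level of 0.508. The second probe of Per3 changed by -1.47 in BAT (SE 0.32, adjusted p = 0.00384) and by -0.97 in gWAT (SE 0.22, adjusted p = 0.0208). The call in BAT also held in the 6 scalings, on leaving out any array and within slide 2 (-1.24, SE 0.43, adjusted p = 0.0461). The call in gWAT did not hold under spike-in scaling (-0.59, adjusted p = 0.119), within the slide (-0.93, adjusted p = 0.179) or with the replicate number as a block (adjusted p = 0.0515). The changes of the 2 tissues differed by 0.47 (SE 0.34, adjusted p = 0.262), and the controls of the 2 depots by 0.19 (SE 0.14, adjusted p = 0.266).

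Because Per3 passed in both tissues, the sequence before its start site is shown, with matches to clock elements in other members for comparison. RefSeq promoter windows of GRCm38.p6, from 250 bases before to 50 bases after a start site, were at hand for 9 of the 10 genes in 13 windows; Per2 had none. They were searched on both strands for the E-box CACGTG, the D-box letters TTATGTAA or TTACGTAA, and the receptor element AGGTCA. Per3 was the one clock gene with a D-box match, and its window held 2, which begin 205 and 158 bases before the start. Of all 32851 windows, 347 (1.06%) held a D-box match and 8 (0.0244%) held 2 or more. The E-box was found in windows of 2 clock genes, Per1 and Cry1, and in 7.15% of all windows. The receptor element was found for 4 (Arntl, Clock, Nr1d2 and Per1) and in 16.3% of all windows. In the following sequences, given 5′ to 3′ on the strand of the gene, capitals mark the match. The 250 bases before the start of Per3 lie at chr4:151044666-151044915 on the minus strand, and the other 4 are stretches of 30 bases around a match, at chr11:69098771-69098800 for Per1 (plus strand, 166 bases before the start), chr10:85185097-85185126 for Cry1 (minus strand, 60 bases before), chr7:113207530-113207559 for Arntl (plus strand, 31 bases past the start) and chr14:18239166-18239195 for Nr1d2 (minus strand, 77 bases before).
Per3, 2 D-box matches: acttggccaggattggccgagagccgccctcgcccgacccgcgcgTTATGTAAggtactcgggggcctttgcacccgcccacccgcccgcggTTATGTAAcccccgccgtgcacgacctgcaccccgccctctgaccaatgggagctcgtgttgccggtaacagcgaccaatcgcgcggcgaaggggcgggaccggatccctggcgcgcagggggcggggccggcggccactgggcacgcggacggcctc
Per1, E-box: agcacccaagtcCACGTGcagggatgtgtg
Cry1, E-box: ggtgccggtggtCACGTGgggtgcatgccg
Arntl, receptor element: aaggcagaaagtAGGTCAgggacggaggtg
Nr1d2, receptor element: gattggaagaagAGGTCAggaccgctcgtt
A match says only that these letters stand in the window, and occupancy by any factor was not measured.

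Per1 and Per2 encode the other PERIOD repressors, and neither passed in BAT or gWAT. The level of Per1 ranged from 4.39 to 5.23 in BAT controls and from 4.50 to 5.17 in BAT of Adipo-Pgam1 KO mice, and the change was 0.03 (SE 0.21, adjusted p = 0.91). In gWAT it ranged from 4.29 to 5.49 in controls and from 4.61 to 4.74 in the labelled arrays, with a change of -0.24 (SE 0.23, adjusted p = 0.501). Thus the labelled gWAT arrays stood close to each other for Per1, whereas the controls spread over more than 1 log2 unit. Per2 ranged from 2.16 to 3.22 in BAT controls and from 1.67 to 2.37 in Adipo-Pgam1 KO mice, a change of -0.56 (SE 0.24, adjusted p = 0.0655). Its second, dimmer probe changed by -0.96 and did pass (SE 0.24, adjusted p = 0.00709). In gWAT, Per2 changed by -0.37 (SE 0.19, adjusted p = 0.196), with levels of 1.79 to 2.47 in controls and 1.38 to 2.02 in the labelled arrays. Neither differed between the depots of controls at the threshold, with 0.22 for Per1 (adjusted p = 0.515) and -0.48 for Per2 (adjusted p = 0.101).

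Cry1 and Cry2 encode the cryptochromes, which hold the repressor complex on the activators. Cry2 in BAT was 3.78, 3.44, 3.61 and 3.30 in controls and 3.39, 2.94, 3.27 and 2.96 in Adipo-Pgam1 KO mice. The groups overlapped, and the change was -0.39 (SE 0.15, adjusted p = 0.0459), close to the threshold. It did not pass in 6 of the 8 fits that left out 1 array (all but those without control replicate 4 or Adipo-Pgam1 KO replicate 1, adjusted p up to 0.121), and it was 0.15 under spike-in scaling, -0.20 under quantile normalization (adjusted p = 0.294) and -0.16 within slide 2 (adjusted p = 0.576). Cry1 in BAT ranged from -2.81 to -2.23 in controls and from -2.33 to -1.90 in Adipo-Pgam1 KO mice, and its change of 0.38 (SE 0.15, adjusted p = 0.0543) lay just on the other side of the threshold. It passed under quantile normalization (0.40, adjusted p = 0.037), median centring (0.41, adjusted p = 0.03) and spike-in scaling (above), and it was -0.21 under Actb and Rplp0 scaling. Within slide 2 it was 0.10 (SE 0.21, adjusted p = 0.73). Its second probe was well above background on 1 of the 4 controls and on all 4 Adipo-Pgam1 KO arrays, through which alone it could be fitted. That probe changed by 1.42 (SE 0.46, adjusted p = 0.0258), from a dim control level. The mean of probes, which includes it, gave 0.90 (adjusted p = 0.0232). By the brighter probe, Cry1 also passed in 2 of the 8 fits that left out 1 array. In gWAT neither passed, with -0.09 for Cry1 (SE 0.29, adjusted p = 0.849) and -0.19 for Cry2 (SE 0.16, adjusted p = 0.423). Cry2 was higher in gWAT than in BAT of controls by 0.49 (SE 0.15, adjusted p = 0.0179), without overlap of the groups.

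Nr1d1 encodes the repressor REV-ERBα. In BAT its level was 1.25, 1.10, 1.27 and -0.78 in controls and 0.37, 1.13, -0.90 and 1.07 in Adipo-Pgam1 KO mice. Control replicate 4 and Adipo-Pgam1 KO replicate 3 were thus far below the other 6 arrays, and the change of -0.29 had a SE of 0.58 (adjusted p = 0.683). In gWAT it was 1.85, 1.94, 2.07 and 1.75 in controls and 1.76, 2.31, 0.84 and 1.37 in the labelled arrays, where replicate 3 was again the lowest. That change was -0.33 (SE 0.28, adjusted p = 0.441). Controls were higher in gWAT than in BAT by 1.19 (SE 0.43, adjusted p = 0.0375), or by 0.69 without BAT control replicate 4.

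Nr1d2 encodes the related REV-ERBβ. In BAT it was 2.22, 2.41, 2.27 and 1.81 in controls and 2.21, 2.56, 2.09 and 2.33 in Adipo-Pgam1 KO mice, a change of 0.12 (SE 0.16, adjusted p = 0.528). In gWAT it was 1.99, 2.38, 2.25 and 1.99 in controls and 1.71, 1.87, 1.72 and 1.71 in the labelled arrays. All 4 labelled arrays were below every control there, but the change of -0.40 (SE 0.13) did not pass after adjustment (adjusted p = 0.0671). It did under quantile normalization (-0.48, adjusted p = 0.0259), normexp with quantile normalization (-0.53, adjusted p = 0.023) and Actb and Rplp0 scaling (-0.46, adjusted p = 0.0458). A second probe, also well above background on all 16 arrays, changed by -0.20 in gWAT (SE 0.12, adjusted p = 0.276) and by -0.10 in BAT (SE 0.19, adjusted p = 0.682). By the brighter probe, the 2 tissues differed in the change of Nr1d2 by -0.52 (SE 0.20, adjusted p = 0.0458 for the interaction). Nr1d2 was the one clock gene past the threshold by this scaling, with Arntl close to it. Of all 14817 genes tested for this, 20.9% passed with the more positive change in BAT and 27.4% with the more positive change in gWAT; at an unadjusted p under 0.05, Arntl and Clock were the 2 clock genes with the more positive change in gWAT. The call for Nr1d2 held in 5 of the 16 fits that left out 1 array (without BAT control 2, Adipo-Pgam1 KO 3 in BAT, gWAT control 1, gWAT control 4 or labelled gWAT replicate 2), with values from -0.59 to -0.39 over the 16, and it did not hold under median centring (-0.42, adjusted p = 0.183), by the mean of probes (-0.31, adjusted p = 0.233) or under Actb and Rplp0 scaling (0.02).

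Dbp encodes a PAR bZIP activator that is driven directly by the clock. In BAT its level was 5.76, 5.83, 5.84 and 5.27 in controls and 4.27, 5.50, 5.10 and 4.66 in Adipo-Pgam1 KO mice. All Adipo-Pgam1 KO arrays were below controls 1 to 3, and replicate 2 was above control 4. The change was -0.79 (SE 0.26, adjusted p = 0.0266), a relative level of 0.577, and a second probe changed by -1.04 (SE 0.23, adjusted p = 0.00417). The call of the brighter probe did not hold in 5 of the 8 fits that left out 1 array (control replicates 1, 2 and 3, Adipo-Pgam1 KO replicates 1 and 4, adjusted p up to 0.0684) or within slide 2 (-0.39, SE 0.39, adjusted p = 0.446), nor under spike-in scaling (-0.25, adjusted p = 0.439), quantile normalization (-0.54, adjusted p = 0.106), normexp with quantile normalization (-0.53, adjusted p = 0.0838) or in the methods' t-test (adjusted p = 0.0615). In gWAT Dbp was 6.14, 6.31, 6.45 and 6.41 in controls and 5.77, 6.33, 6.28 and 5.60 in the labelled arrays, a change of -0.33 (SE 0.19, adjusted p = 0.249). Quantile normalization gave -0.65 there (adjusted p = 0.0225) and normexp with quantile normalization -0.67 (adjusted p = 0.0149), both past the threshold, and spike-in scaling 0.06. Controls were higher in gWAT than in BAT by 0.65 (SE 0.16, adjusted p = 0.00589), without overlap.

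In all, 5 of the 10 clock genes differed between the depots of control mice, where 29.3% of the 14301 genes tested were higher in gWAT and 35.4% higher in BAT. Arntl and Clock, the activators, were higher in BAT, and Cry2, Nr1d1 and Dbp were higher in gWAT. The slides of the depots differed in part as well, and within slide 2 the difference of Clock (-0.25, adjusted p = 0.33) was no longer past the threshold and that of Nr1d1 was 2.73, each resting on BAT control replicate 4. The depot call of Clock held in 4 of the 8 fits that left out 1 array (without BAT control 2 or 4, or gWAT control 1 or 3), and it did not hold under quantile normalization, median centring or spike-in scaling (-0.13, adjusted p = 0.359). That of Nr1d1 did not hold without any 1 gWAT control (adjusted p from 0.0592 to 0.0793), under Actb and Rplp0 scaling (0.86, adjusted p = 0.107) or in the methods' t-test (adjusted p = 0.0827). Under Actb and Rplp0 scaling Cry2 (0.16, adjusted p = 0.367) and Dbp (0.32, adjusted p = 0.0703) did not pass either. The genotype groups did not overlap for 2 of the 10 clock genes in BAT (Clock and Per3), against 57.1% of all genes tested, and for 2 in gWAT (Per3 and Nr1d2), against 24.2%.

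The PAR bZIP factors related to Dbp were lower in both tissues. Tef in BAT was 6.35, 6.57, 6.54 and 6.25 in controls and 5.41, 5.50, 5.64 and 5.17 in Adipo-Pgam1 KO mice, a relative level of 0.5 (SE 0.13 on the log2 scale, adjusted p = 2.16e-04). In gWAT it changed by -0.55 (SE 0.15, adjusted p = 0.0346), from 6.14, 6.28, 6.41 and 6.45 in controls to 5.65, 5.80, 6.06 and 5.56 in the labelled arrays. The groups of Tef did not overlap in either tissue. Hlf fell further in BAT, from 2.99, 2.85, 2.84 and 2.14 in controls to 0.13, -0.15, 0.03 and -0.46, a change of -2.82 (SE 0.21, adjusted p = 1.60e-05) and a relative level of 0.142. In gWAT Hlf changed by -0.53 (SE 0.16, adjusted p = 0.0475), and the changes of the 2 tissues differed by 2.29 (SE 0.27, adjusted p = 2.40e-05). The gWAT calls were close to the threshold. Within slide 3 neither passed (adjusted p = 0.196 for Tef and 0.198 for Hlf), nor with the replicate block (0.0861 and 0.133), and under spike-in scaling the changes were -0.16 and -0.14. Of the 8 fits that left out 1 gWAT array, Tef passed in 2 and Hlf in 0 (adjusted p from 0.057 to 0.119).

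Other genes around the clock were read from fixed lists, whose counts stand against 27.5% of all genes higher and 34.0% lower in BAT, and 9.97% and 7.85% in gWAT. Of 7 partners and repressors of the loop, 5 were tested. In BAT, Rora, which encodes an activator at the same elements as REV-ERB, fell by 0.24 (SE 0.09, adjusted p = 0.036, but 0.30 under spike-in scaling), and in the others the largest positive change was that of Bhlhe40 (0.66, adjusted p = 0.199). In gWAT none of these 5 passed, in limma, in the methods' t-test or at an unadjusted p under 0.05 by either. The extremes there were 0.86 for Bhlhe40 (adjusted p = 0.202) and -0.44 for Ciart (adjusted p = 0.401). Of 9 kinases, phosphatases and ubiquitin ligases that act on PER and CRY proteins, 3 rose and 2 fell in BAT. Csnk1e, a casein kinase that phosphorylates PER, rose most, by 0.81 (SE 0.12, adjusted p = 5.45e-04), and Fbxl21, a ubiquitin ligase subunit for CRY, fell most, by 0.98 on the log2 scale (SE 0.23, adjusted p = 0.00605). In gWAT none of the 9 passed in limma, with 3 at an unadjusted p under 0.05 and 0 past the threshold in the methods' t-test. There the extremes were 0.52 for Ppp1cb, a phosphatase catalytic subunit (adjusted p = 0.0625), and -0.40 for Fbxl21 (adjusted p = 0.227).

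Of 9 clock-controlled output genes, 5 fell and 1 rose in BAT. Noct, which encodes nocturnin, fell most, with levels of 5.49, 6.20, 4.83 and 5.07 in controls and 3.66, 3.53, 2.51 and 4.46 in Adipo-Pgam1 KO mice, a change of -1.86 (SE 0.42, adjusted p = 0.00487). Tspan4, which encodes a tetraspanin, rose by 1.08 (SE 0.15, adjusted p = 2.90e-04). In gWAT, Pdk4, the kinase that inactivates pyruvate dehydrogenase, rose by 2.09 (SE 0.46, adjusted p = 0.0198), and Por, the reductase partner of cytochrome P450 enzymes, fell by 0.67 on the log2 scale (SE 0.17, adjusted p = 0.0278). The lowest value was that of the deubiquitinase gene Usp2, -0.88, which did not pass (adjusted p = 0.0803). The call of Pdk4 was not kept within slide 3 (1.02, adjusted p = 0.428) or with the replicate block (adjusted p = 0.0571), nor that of Por within slide 3 (adjusted p = 0.118), with the replicate block (adjusted p = 0.0925) or in 6 of the 8 fits that left out 1 array. Pdk4 moved the other way in BAT, with -0.95 (SE 0.31, adjusted p = 0.027) and a difference of 3.05 between the tissues (SE 0.61, adjusted p = 9.77e-04), or 2.02 with the slide as a block (adjusted p = 0.114). Over the 25 genes tested of these 4 lists, 10 were lower and 4 higher in BAT with a median of -0.09, and 3 were lower and 1 higher in gWAT with a median of -0.06, beside medians of -0.08 and 0.05 over all genes. Of 8 genes induced by glucocorticoids, which follow the daily hormone rhythm, 3 fell and 1 rose in BAT, led by Zbtb16 (-1.29, SE 0.43, adjusted p = 0.0275) and Mt2 (0.48, SE 0.18, adjusted p = 0.0425, but -0.11 under Actb and Rplp0 scaling). In gWAT 1 fell, Fkbp5 (-1.38, SE 0.37, adjusted p = 0.0346, but 0.0956 within slide 3, 0.0739 with the replicate block and not past the threshold in 5 of the 8 fits that left out 1 array), and none rose by limma, by an unadjusted p under 0.05 or by the methods' t-test. Within slide 2, the BAT calls of Rora, Fbxl21, Noct, Pdk4, Zbtb16 and Mt2 were lost (adjusted p from 0.103 to 0.273).

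**Figure D3:**
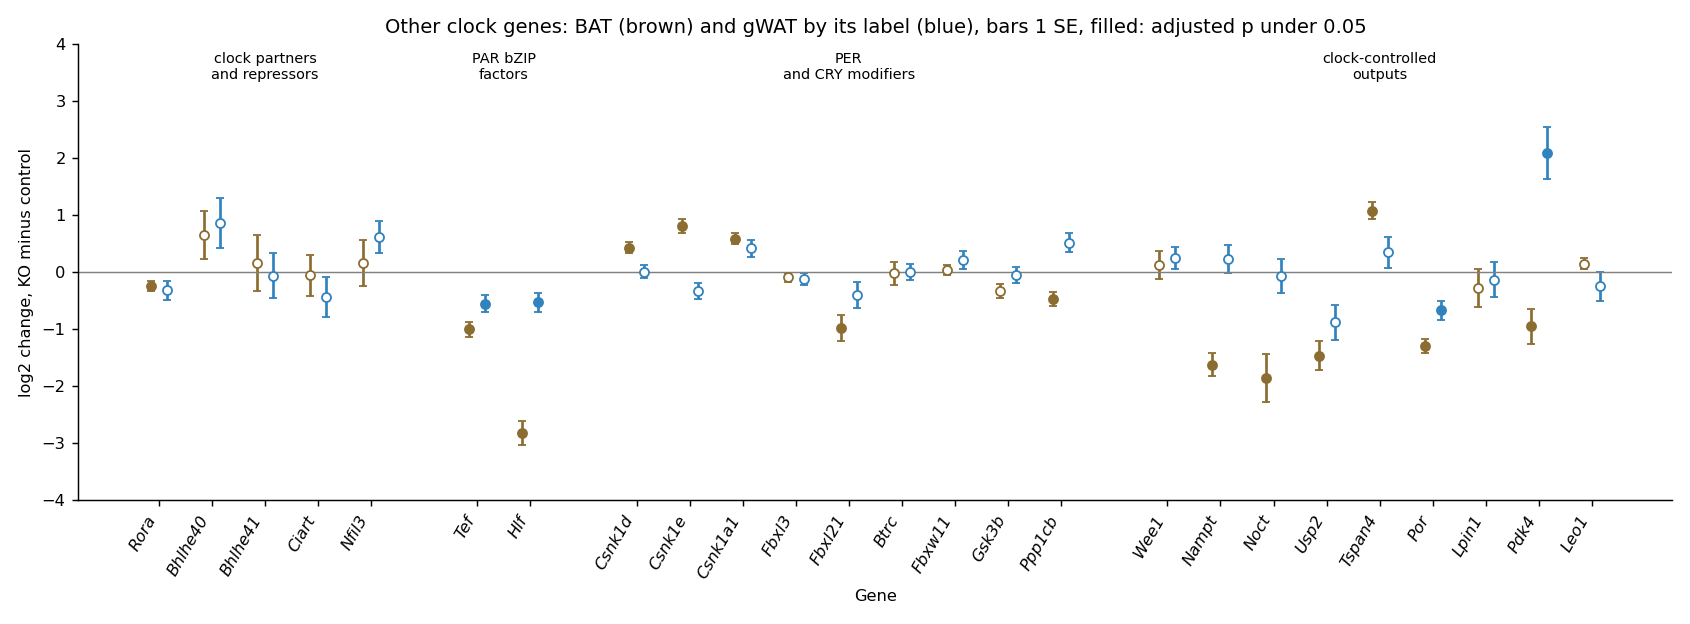
Log2 change in BAT (brown) and in gWAT by its label (blue) of the 25 tested genes of 4 clock lists, with bars of 1 SE and filled points for an adjusted p under 0.05. Hlf has the lowest point, -2.82 in BAT, and Pdk4 is filled on both sides of 0, at -0.95 in BAT and 2.09 in gWAT.

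Cell type markers moved in BAT with these changes. Of 8 adipocyte markers 7 fell, and their summed linear level was 2710 to 3032 in controls and 1009 to 1352 in Adipo-Pgam1 KO mice. Of 8 macrophage markers 7 rose, and their summed level was 28.1 to 38.7 and 91.6 to 133. All 5 fibroblast and preadipocyte markers rose, with summed levels of 116 to 162 and 211 to 304. The summed level of thermogenic adipocyte markers was 2368 to 2527 in controls and 887 to 1389 in Adipo-Pgam1 KO mice, with 5 of 6 lower. No marker of these 4 lists was below background on all arrays of a BAT group. Skeletal muscle markers set 2 BAT arrays apart, with a summed level of 0.387 to 1.07 in controls and 0.848 to 78.9 in Adipo-Pgam1 KO mice. Myh4, a myosin of fast muscle fibres, was at 5.02 and 2.80 in Adipo-Pgam1 KO replicates 1 and 3 and at -5.84 and -4.94 in replicates 2 and 4, and it was well above background on no BAT control. Without those 2 arrays, an alternative chosen after seeing the data, 3 clock genes were called in BAT, namely Clock (-0.38, adjusted p = 0.0393), Per3 (-1.92, adjusted p = 4.52e-04) and Cry2 (-0.58, adjusted p = 0.0225), while Dbp was at -0.60 (adjusted p = 0.118) and Arntl at 0.55 (adjusted p = 0.0625). The change of Per3 then differed between the tissues by 0.94 (adjusted p = 0.0143). The part of the other markers in the levels of the clock genes was not tested.

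A difference between 2 probes on the same array does not move with the scaling of that array, and the difference of Arntl and Dbp, whose rhythms run in opposite phase, was therefore read in each array. Only its change between groups has a meaning, since the probes differ in brightness. In BAT, Arntl minus Dbp was -7.45, -7.31, -7.15 and -6.78 in controls and -5.33, -6.75, -7.06 and -5.28 in Adipo-Pgam1 KO mice, with means 1.07 apart. In gWAT it was -9.15, -10.22, -10.28 and -10.79 in controls and -7.11, -8.66, -9.59 and -7.21 in the labelled arrays, with means 1.97 apart. In both tissues the mean was higher in the Adipo-Pgam1 KO group and the groups overlapped, and replicates 1 and 4 of that group were the highest and replicate 3 the lowest. Arntl minus Nr1d1 was likewise higher, by 0.56 in BAT with overlap and by 1.96 in gWAT, where all labelled arrays (-4.64 to -2.98) lay above all controls (-6.13 to -4.86). The labels do not say whether BAT and gWAT arrays of the same number came from 1 mouse. In controls, deviations from the group mean of same-numbered BAT and gWAT arrays correlated with r of -0.07 to 0.22 over genes. Over the clock genes alone r was -0.15 to 0.79. In the Adipo-Pgam1 KO groups r was -0.19 to 0.29 over genes and 0.16 to 0.87 over the clock genes. Comparisons between tissues took all arrays as independent except with the replicate block.

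**Figure D4:**
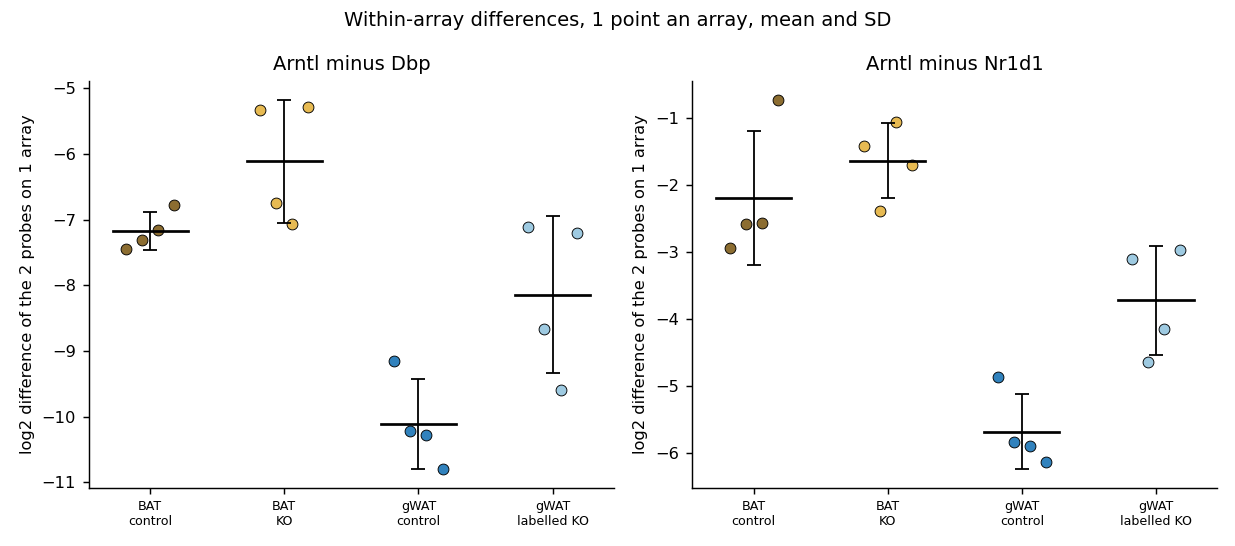
Log2 difference between the probe of Arntl and that of Dbp (left) or Nr1d1 (right) on each array, with 1 point an array (replicates 1 to 4 from left to right), the mean as a line and the SD as a bar. In gWAT, Arntl minus Nr1d1 runs from -6.13 to -4.86 in the controls and from -4.64 to -2.98 in the labelled arrays.

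Within groups, the clock genes varied together in part. After subtraction of the mean of each tissue and genotype, Nr1d1 and Nr1d2 correlated over the 16 arrays with a Pearson r of 0.78, Per1 and Per2 with 0.71, and Arntl and Dbp with -0.54, values that describe these arrays and share their scaling. Arntl and Nr1d1, whose rhythms also run in opposite phase, correlated with 0.40, and Nr1d1 and Dbp with 0.29. Replicate 3 of the Adipo-Pgam1 KO group had the lowest Arntl, the lowest Nr1d1 and the highest Per3 of its group in BAT and in gWAT alike. Of the genes well above background on all 16 arrays, those whose deviations were most like those of Arntl were Bcl3 (r = 0.89), Kif26a (0.82), Dll1 (0.81), Tbkbp1 (0.81) and Synpo (0.80). For Dbp they were Ppib (0.89), Jade1 (0.87), Frg1 (0.86), Bmpr1a (0.85) and Sptssa (0.84). No clock gene was among either 5.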

How the data were processed

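Total RNA of BAT and gWAT was hybridized by the authors to 1-colour Agilent 8x60K mouse arrays and read with Agilent Feature Extraction 10.7.1.1. They deposited, per array, background-subtracted signal intensity of each probe with its raw and background signals, and a table of normalized intensities made in GeneSpring, close to the intensity over the 75th percentile of its array. Here the scanner's intensity was scaled by the 75th percentile of its array and put on the log2 scale. RefSeq accessions of 35886 probes were matched to symbols (91.9% matched), and the probe with the highest mean stood for its gene. Genes not well above background in every array of some group were not tested. Groups were compared with limma 3.58.1 (R 4.3.3) and adjusted by Benjamini and Hochberg over all genes tested. The fit was tested on simulated data. The labels call the samples independent but do not say whether BAT and gWAT arrays of the same number share a mouse. The p-values measure the spread between arrays, taken as independent. The labels give 100 ng of RNA per array, and the methods another amount. The number of arrays limits the precision. With 4 arrays against 4, the smallest two-sided exact permutation p is 0.0286.

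Alternatives were quantile and median normalization, spike-in and Actb with Rplp0 scaling, normexp (offset 50) with quantile normalization, the authors' table, no filter, the mean of probes, other probes, the slide or replicate number as a block, 1 array left out, and the methods' t-test. One more, without the pair of BAT arrays high in muscle markers, was added after seeing the data. The 10 genes, the lists and the motifs were chosen with earlier results of these data known. Named besides the 10 genes and Pgam1 were those of each list that moved most in each direction, cell type markers and the 5 genes most like Arntl and Dbp. Genes named to spell out a small count were chosen after their values were seen. One gene of the lists is not reported here and was left out of their counts.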

Additional observations from a re-analysis of the deposited data

Results flagged for a closer look

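Of 40 groups of 4 arrays of the clock genes, 4 held an array far from the other 3, and chance alone gives about 1 in 20. These were Clock in gWAT control replicate 3 (1.70, the highest of its group), Nr1d1 in BAT control replicate 4 (-0.78, the lowest), Nr1d2 in gWAT array 2 of those labelled Adipo-Pgam1 KO (1.87, the highest) and Dbp in BAT control replicate 4 (5.27, the lowest). BAT control replicate 4 is the BAT control that shared a slide with the Adipo-Pgam1 KO arrays, and the part of the slide was not tested. Without it, Nr1d1 changed by -0.79 and Dbp by -0.93 in BAT.

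The change in gWAT minus that in BAT passed an adjusted p of 0.05 in limma for 1 clock gene, Nr1d2 (-0.52). Of the listed genes it did so for the PAR bZIP factor Hlf (2.29), for Csnk1d (-0.42), Csnk1e (-1.14) and Ppp1cb (0.99), which act on PER proteins, and for the output genes Nampt (1.85), Noct (1.80), Por (0.62) and Pdk4 (3.05). Of the 25 genes tested of the 4 clock lists, 6 were thus more positive in gWAT and 2 in BAT. The shares over all genes tested were 27.4% and 20.9%. The call of Csnk1d was not kept with the slide as a block (-0.41, adjusted p = 0.225). Pdk4 fell in BAT and rose in gWAT, whereas Por fell in both tissues, and its difference was -0.08 under quantile normalization and 0.54 with the slide as a block (adjusted p = 0.204).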

How the results depend on the processing

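Of 903 changes of a clock gene under an alternative, 724 kept their direction and their side of the threshold, 77 lost the call, 37 gained it and 65 changed sign. In BAT, the count of 4 clock genes past the threshold was 2 under normexp with quantile normalization, 1 with the slide as a fixed block, 2 with it as a random block, 2 in the methods' t-test and 2 to 5 when 1 array was left out. In gWAT, the count of 2 was 4 under quantile and 4 under normexp with quantile normalization, 1 each under spike-in scaling, the mean of probes, no filter and the methods' t-test, 0 with the slide as a fixed block and 1 to 2 when 1 array was left out. The 2521 genes called in gWAT were 1388 under median centring, 5836 under spike-in scaling, 1138 with no filter, 184 with the slide as a fixed block, 1618 in the methods' t-test and 1143 to 3234 when 1 array was left out, and the 7160 of the interaction were 3264 with the slide as a fixed block. With the replicate block, 1087 genes and 1 clock gene were called in gWAT. Same-numbered arrays of the 2 genotypes deviated together with r of 0.00 to 0.22 in BAT and -0.14 to 0.43 in gWAT over genes. The highest r between arrays of different number was 0.14 in BAT and 0.29 in gWAT. These values cannot show whether same-numbered arrays share more than a number. The causes were not tested.

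Changes of sign in BAT were, under Actb and Rplp0 scaling, Arntl -0.32, Per1 -0.56, Cry1 -0.21 and Nr1d2 -0.47, under spike-in scaling Clock 0.12, Cry2 0.15 and Nr1d1 0.25, with the slide as a fixed block Nr1d1 1.20, by the second probe Clock 0.07 and Nr1d2 -0.10, and without Adipo-Pgam1 KO replicates 1 and 3 together Per1 -0.08 and Nr1d1 0.39. With 1 array left out, Per1 ranged from -0.12 to 0.21, Nr1d1 from -0.79 to 0.15 and Nr1d2 from -0.00 to 0.20. In gWAT, spike-in scaling gave Clock 0.34, Per1 0.15, Per2 0.02, Cry1 0.30, Cry2 0.20, Nr1d1 0.06 and Dbp 0.06. Clock was 0.07 under median centring, 0.20 by the mean of probes, 0.46 by the second probe and -0.10 to 0.02 with 1 array left out, and Cry1 was 0.01 under quantile normalization, 0.03 under median centring, 0.02 under normexp with quantile normalization and -0.32 to 0.15 with 1 array left out. For the difference between the tissues, Actb and Rplp0 scaling gave Per1 0.26, Cry1 0.06, Nr1d1 0.50 and Nr1d2 0.02, quantile normalization Per2 -0.02, Cry2 -0.14 and Dbp -0.12, normexp with quantile normalization Cry2 -0.05 and Dbp -0.14, the slide as a fixed block Per2 -0.19, Cry2 -0.27 and Dbp -0.03, and median centring Nr1d1 0.06. With 1 array left out, Per2 ranged from -0.01 to 0.34 and Nr1d1 from -0.48 to 0.46. Between depots, Actb and Rplp0 scaling gave Per1 -0.12 and Per3 -0.15, and Nr1d2 was 0.13 under quantile, 0.16 under normexp with quantile normalization, 0.20 under spike-in scaling, 0.40 and 0.02 with the slide as a fixed and a random block and -0.15 to 0.05 with 1 array left out. By the second probe of Dbp, the within-array difference of Arntl and Dbp was higher in the Adipo-Pgam1 KO group by 1.31 in BAT and 1.94 in gWAT.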
